A study of Homo sapiens with 12 samples.

Results

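The comparison asked whether GNE-7883, a small-molecule inhibitor of the TEAD transcription factors, changed gene expression differently in a line selected for resistance than in its sensitive parent. It was made on RNA sequencing counts of all 12 libraries of the series, in 4 groups of 3, as the response in resistant cells (GNE-7883 minus DMSO) minus the response in sensitive cells, for each of 18035 tested genes of 58302 in the count table. The sensitive groups were NCI-H226, a human mesothelioma line without functional NF2, in DMSO vehicle or GNE-7883. The resistant groups were NCI-H226_CL3 in DMSO or GNE-7883, a derivative of the same NF2-null line that had grown in stepwise higher doses of TEAD inhibitor, from 0.25 µM up to 3 µM. All 4 groups therefore lack NF2, and both vehicle groups received DMSO. The dose and length of the final incubation were not given in the sources used here, 1 resistant line was profiled, and the labels do not say whether libraries came from separate cultures, so that p-values reflect only how far the 3 libraries of a group lay apart, which may be technical variation.

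In the Hippo pathway, the product of NF2 (merlin) helps to activate the LATS kinases, which keep the coactivators YAP and TAZ out of the nucleus. Without that brake YAP and TAZ bind TEAD proteins on DNA and drive genes for matrix signalling, growth and division. TEAD inhibitors of this kind interfere with the pairing of YAP or TAZ with TEAD, and NF2 loss is frequent in mesothelioma.

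Total counts were 31878934 to 46962645 per library, so that 3 counts correspond to 0.0639 to 0.0941 CPM (counts scaled to a common library size, the unit of all levels here). In the sensitive DMSO group replicate 2 stood apart, with a chi-square over its degrees of freedom of 38 and 43.5 against replicates 1 and 3, where those 2 gave 3.24 and pairs within the other groups 3.4 to 10.9. All 18 mesothelial markers reached 1 CPM in sensitive cells and 15 did in resistant cells. Their summed level was 14900 to 18100 CPM without and 12000 to 12500 CPM with the drug in sensitive cells, and 7420 to 8730 CPM without and 8890 to 9810 CPM with it in resistant cells. The tissue label reads lung epithelium, yet the epithelial markers EPCAM, CLDN3 and CLDN7 and the lung factor NKX2-1 averaged at most 3 counts per library in every group, as did the blood marker PTPRC. Other members were present: 2 to 4 of the 11 epithelial markers, ESRP2 in every group, reached 1 CPM (summed level 88.2 to 105 CPM in sensitive and 39.0 to 43.2 CPM in resistant cells). The 12 alveolar and airway markers summed to 88.1 to 111 CPM in untreated and 734 to 762 CPM in treated sensitive cells, nearly all SFTPD, and to at most 4.68 CPM in resistant cells.

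The response to GNE-7883 differed between the lines for 6443 genes, 35.7% of those tested (edgeR quasi-likelihood test, adjusted p under 0.05, which is the rule for every call here). The difference was above 0 for 3435 genes (19.0%) and below 0 for 3008 (16.7%), and 753 and 741 of these differed by at least 2-fold. Without sensitive DMSO replicate 2 the counts were 3788 and 3323. In sensitive cells alone 10483 genes (58.1%) responded, 5367 upward (29.8%) and 5116 downward (28.4%). In resistant cells 1663 did (9.22%), 947 upward (5.25%) and 716 downward (3.97%). The median size of a response over all tested genes was 0.395 on the log2 scale in sensitive and 0.131 in resistant cells, while the median signed difference was -0.00926. In bulk RNA, fewer cells with a transcript and less of it per cell cannot be told apart.

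Genes that responded in sensitive cells mostly moved in the same direction in resistant cells, but by less. The 1487 genes that rose at least 2-fold in sensitive cells had a median log2 fold change of 1.45 there and of 0.323 in resistant cells, and the 1154 that fell at least 2-fold had medians of -1.33 and -0.204. The sign was the same in resistant cells for 80.2% of the former and 86.1% of the latter, though only 363 and 277 of them passed the test in that direction. Taken gene by gene, the median share of the sensitive log2 response that was seen in resistant cells was 22% for rises and 15.2% for falls. By size of the sensitive response, the share was 21.8% for rises of 2-fold to 4-fold (1192 genes), 21.5% for 4-fold to 8-fold (239) and 30.4% for rises of at least 8-fold (56). For falls of the same sizes it was 14.9%, 17.8% and 16.2% (991, 111 and 52 genes). Both lines have their own DMSO and GNE-7883 libraries, so that the resistant responses themselves were not used to choose the genes. The resistant libraries did enter the shared estimate of spread, the filter and the scaling. The sensitive medians and the shares rest on the same sensitive values that chose the genes. Such a choice can enlarge the sensitive medians and lower the shares, by an amount that was not measured.

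For description, the 2664 genes that responded at least 2-fold in either line were sorted by 3 values, the responses in each line and their difference. A response was termed lost where the sensitive response was at least 2-fold, the difference was called and the 95% interval of the resistant response lay within 1.5-fold of no change. It was reduced where the resistant response was called, had the same sign and was smaller, kept where the 95% interval of the difference lay within 1.5-fold, reversed where both responses and the difference were called with opposite signs, and gained where the resistant response was at least 2-fold, the difference was called and the sensitive interval lay within 1.5-fold. A gene was given the first class that fitted, with lost and gained ahead of reversed. Of the 9 genes that moved at least 2-fold in sensitive cells and were called the other way in resistant cells (4 rises and 5 falls), those whose resistant interval lay within 1.5-fold, such as CXCL8 and HK2, therefore count as lost. By these limits 994 responses were lost (337 rises and 657 falls), 311 reduced (207 rises and 104 falls), 13 kept (all rises), 2 reversed, 2 gained and 1 larger in resistant cells. The other 1341 could not be placed, 1200 of them below 5 CPM in every group. A lost response is one that was small, not one shown to be 0: 234 of the 994 were still called in resistant cells. Of the 994, 849 reached a mean of 5 CPM in at least 1 group, which was not always a sensitive one. Leaving out 1 library at a time gave 896 to 1051 lost, 10 to 14 kept and 3 to 7 reversed genes, 7 of these without sensitive DMSO replicate 2. Because the classes were cut from the tested values, their counts describe these libraries and are not tests.

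**Figure D1:**
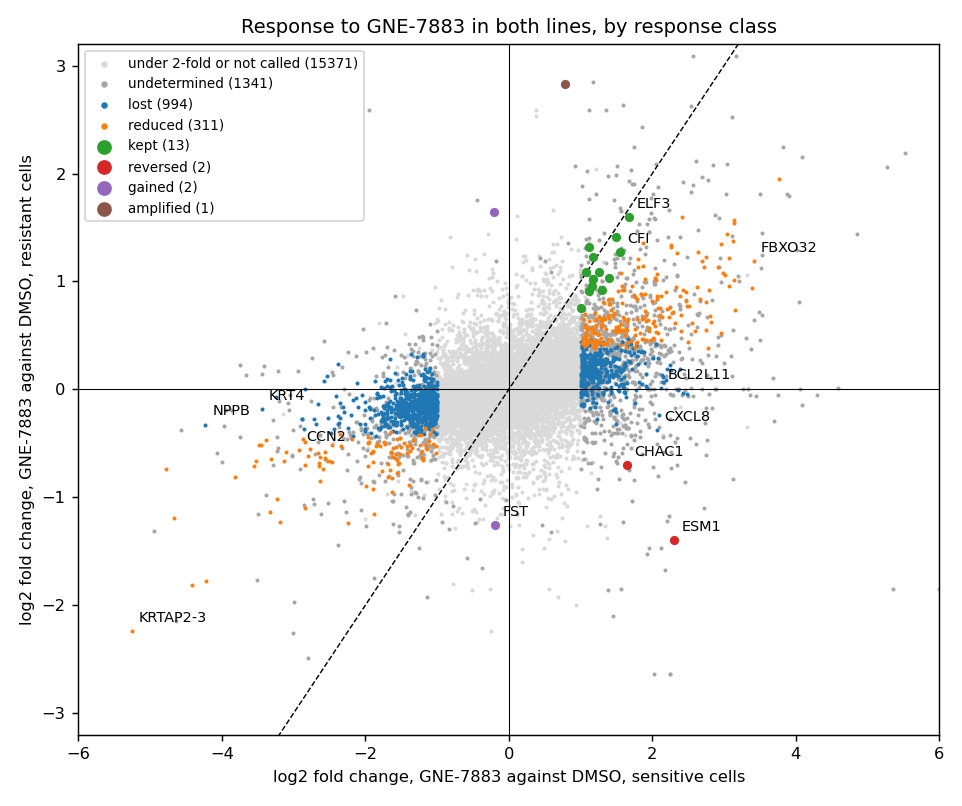
Log2 fold change of GNE-7883 against DMSO in sensitive cells (horizontal axis) and resistant cells (vertical axis), 1 point per tested gene, coloured by class with the number of genes in the key; the dashed line marks equal responses and 8 genes lie outside the plotted range. Most points with large horizontal values lie close to the horizontal axis, the 13 kept rises lie near the dashed line, and ESM1 and CHAC1 lie below the axis at the right.

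Several known targets of YAP and TEAD were among the lost and reduced falls. NPPB encodes a natriuretic peptide precursor (ENSG00000120937, chromosome 1, 11857464 to 11858931, GRCh38). It stood at 102, 120 and 98.5 CPM in sensitive DMSO and 5.51, 5.23 and 6.26 CPM in sensitive GNE-7883 libraries, and at 71.5, 80.9 and 66.5 CPM in resistant DMSO and 61.2, 53 and 60.5 CPM in resistant GNE-7883 libraries. The resistant libraries of both treatments lay between the sensitive groups and close to the untreated one, and the resistant groups did not overlap. NPPB fell by 4.23 on the log2 scale in sensitive cells and by 0.33 in resistant cells, a difference of 3.91 ± 0.14 (± 1 standard error of the fit, as for every log2 value here, with adjusted p = 4.44e-11 by edgeR), the largest positive one among the lost genes of at least 5 CPM.

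CCN2, a secreted matrix protein and a standard YAP target (ENSG00000118523, chromosome 6, 131948176 to 131951373), stood at 64.1, 65.3 and 63.5 CPM in sensitive DMSO and 8.74, 8.16 and 8.57 CPM in sensitive GNE-7883. It stood at 107, 98.8 and 101 CPM in resistant DMSO and 67.5, 69.8 and 70.6 CPM in resistant GNE-7883, so that treated resistant cells held slightly more than untreated sensitive cells in every library. The fall of 2.92 on the log2 scale shrank to 0.56, a difference of 2.36 ± 0.08 (adjusted p = 2.99e-11, edgeR). ANKRD1, another standard YAP target and an ankyrin repeat protein of heart muscle, fell by 2.60 in sensitive and by 0.73 in resistant cells, at a lower untreated level in the resistant line (4.83 to 5.59 against 12.3 to 13.9 CPM). The 250 bases before the start of both genes (RefSeq, GRCh38.p14, minus strand, chr6:131951373-131951622 for CCN2 and chr10:90921088-90921337 for ANKRD1) are shown because they hold several copies of the TEAD core GGAATG. Capitals mark matches on either strand to GGAATG and, where present, to the AP-1 motif TGANTCA or the CCAAT box.
CCN2: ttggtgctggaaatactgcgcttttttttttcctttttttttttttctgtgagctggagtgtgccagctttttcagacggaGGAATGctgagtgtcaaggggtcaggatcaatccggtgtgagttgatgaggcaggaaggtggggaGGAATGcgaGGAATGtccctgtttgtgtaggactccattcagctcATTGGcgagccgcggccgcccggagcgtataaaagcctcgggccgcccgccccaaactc
ANKRD1: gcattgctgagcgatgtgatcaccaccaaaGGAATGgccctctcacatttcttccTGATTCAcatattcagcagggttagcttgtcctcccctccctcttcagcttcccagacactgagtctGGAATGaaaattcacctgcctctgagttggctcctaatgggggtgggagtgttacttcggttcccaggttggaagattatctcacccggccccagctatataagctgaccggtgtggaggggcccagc
CCN2 has 3 TEAD matches and ANKRD1 has 2. Over 300-base windows that also take in the first transcribed bases, GGAATG occurred in 7 of 20 promoters of the YAP/TEAD list that could be matched (35%), against 11.1% of 11683 promoters of tested genes and 14.0% of all 35116 in the table. A match is a run of letters and not a measured binding site.

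Of 27 YAP/TEAD targets, 19 had a difference above 0, 1 (RBMS3) below 0 and 7 were not called, so that 74.1% differed against 35.7% of all genes tested. Its median log2 response was -0.684 in sensitive and -0.186 in resistant cells, beside 0.0219 and -0.00283 over all genes tested. By class 6 were lost, 4 reduced, and the rest responded less than 2-fold in sensitive cells and were not sorted. IGFBP3, which binds insulin-like growth factors, fell by 2.48 in sensitive and 0.40 in resistant cells. Coagulation factor F3 fell by 2.81 and 0.62, and the receptor kinase AXL by 0.99 and 0.25. CCN1, a close relative of CCN2, fell by 1.31 and 0.34. Of 24 tested genes of the Hippo pathway itself and of TEAD cofactors, 9 rose and 8 fell in sensitive cells (29.8% and 28.4% of all genes). The difference was above 0 for 6 and below 0 for 4, a share of 41.7% against 35.7% of all genes. Among them TEAD4 fell by 1.0 in sensitive cells and was at -0.12 ± 0.07 in resistant cells, where it was not called. WWTR1, which encodes TAZ, rose by 0.82 ± 0.08 and 0.32 ± 0.08 (difference -0.49 ± 0.11), and YAP1 rose by 0.48 ± 0.09 in sensitive cells and was at -0.01 ± 0.09 in resistant cells, with a called difference of -0.49 ± 0.12. TEAD1 had the same difference, -0.49 ± 0.20, which was not called (adjusted p = 0.0705) but was called in 5 refits, among them those without any one of the sensitive DMSO libraries, at -0.27 without replicate 2. NF2 and VGLL1 were too low to be tested.

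Other large falls outside that list followed the same course. MGLL, the monoglyceride lipase, fell by 3.31 in sensitive and 0.65 in resistant cells, THBS1 (thrombospondin 1) by 3.48 and 0.52, and FGF1 (a fibroblast growth factor) by 3.38 and 0.47. ERBB3, a receptor partner of the EGF family, fell by 2.52 and 0.26, with a difference of 2.26 ± 0.10. KRT4, a keratin, fell by 3.45 in sensitive cells, but at 0.50 to 0.68 CPM in the resistant line its response there was poorly measured (-0.18 ± 0.18), and it stayed in the lost class in only 7 of 17 refits of the model. RGS7, KRTAP2-3 and ADAMTS6 were among the reduced genes with the largest differences, but stood at 0.06 to 0.24 CPM in treated sensitive cells, near the level of 3 counts, so that their sensitive fold changes rest on few reads. KRTAP2-3 also has close copies among which reads could be split.

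GJA5, which encodes the gap junction protein connexin 40 (ENSG00000265107, chromosome 1, 147756199 to 147773362), lost its response from another starting level. It stood at 79.8, 75.4 and 80.4 CPM in sensitive DMSO and 13.9, 12.3 and 13.2 CPM in sensitive GNE-7883, against 13.6, 13.3 and 13.0 CPM in resistant DMSO and 14.2, 14.3 and 13.7 CPM in resistant GNE-7883. Resistant cells in DMSO therefore already lay at the treated level of sensitive cells, the reverse of NPPB. That line had earlier grown in TEAD inhibitor, so its DMSO level is not that of cells never exposed. The difference of responses was 2.66 ± 0.09. ANKRD2, a muscle ankyrin repeat gene, had this form too, at 1.57 to 2.27 CPM in untreated resistant cells against 29.2 to 35.4 in untreated and 2.98 to 4.01 in treated sensitive cells.

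Most lost responses had the form of NPPB rather than that of GJA5. Of the 657 lost falls, both resistant group levels lay nearer (on the log2 scale) to sensitive DMSO than to sensitive GNE-7883 for 561 (85.4%) and nearer to sensitive GNE-7883 for 68 (10.4%). Of the 337 lost rises the numbers were 255 (75.7%) and 61 (18.1%). Among reduced genes 175 of 207 rises and 80 of 104 falls had both resistant levels nearer to untreated sensitive cells. This sorting was chosen after the levels had been seen and carries no test.

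**Figure D2:**
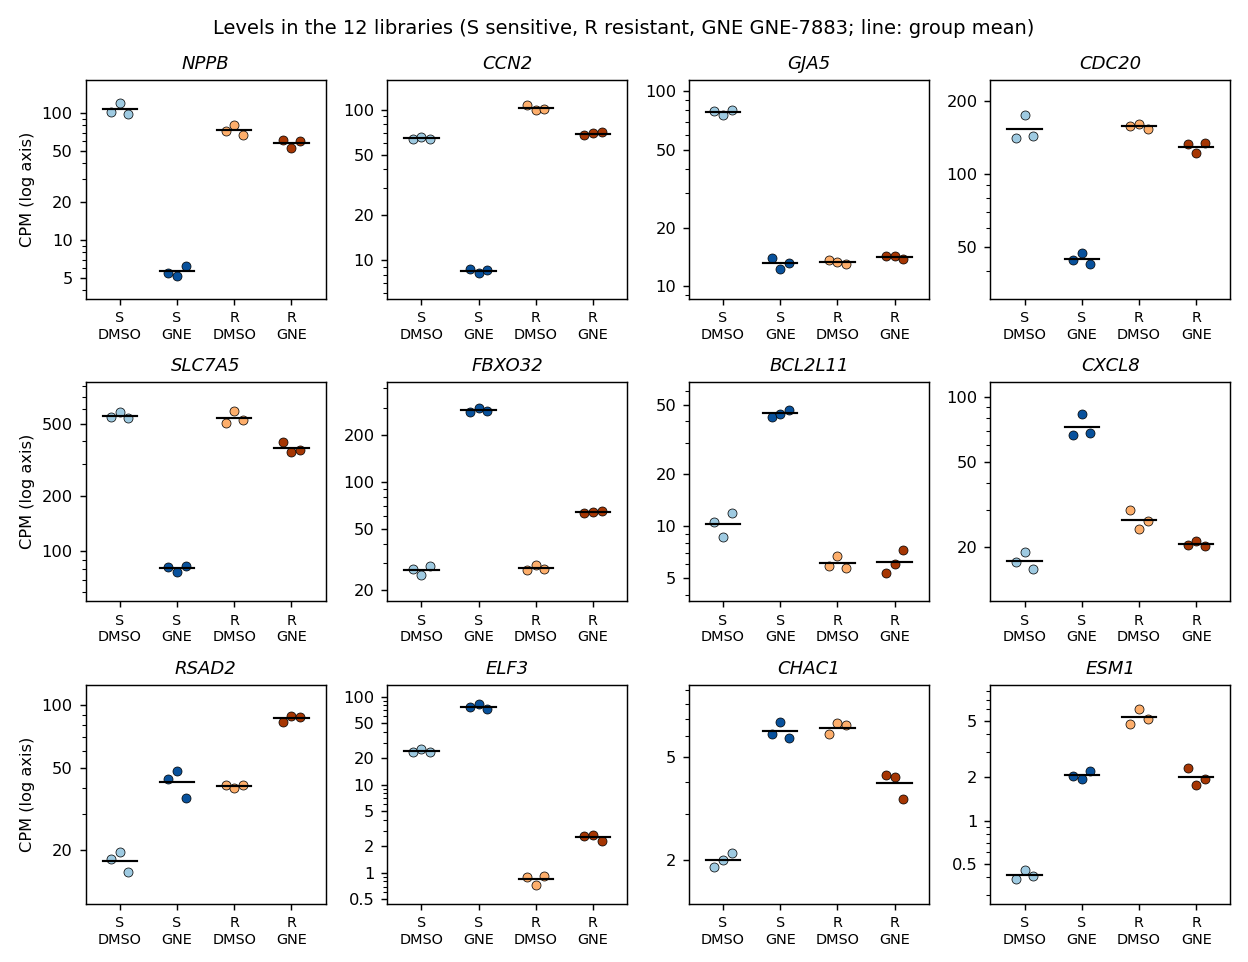
CPM on a log axis for 12 genes in the 12 libraries, 3 points per group with a line at the group mean; S and R are the sensitive and resistant lines, GNE is GNE-7883. NPPB, CCN2, CDC20 and SLC7A5 fall steeply in S only, GJA5 starts low in R, FBXO32 rises in both but less in R, BCL2L11 rises in S only, RSAD2 and ELF3 rise about equally, and CHAC1 and ESM1 move in opposite directions.

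Cell division genes fell in sensitive cells and moved little in resistant cells. All 30 mitosis genes fell in sensitive cells (28.4% of all genes), and 10 of them fell in resistant cells (3.97%). All 30 had a called difference above 0 (19.0% of all genes), and 27 were lost. Their median response was -1.27 in sensitive and -0.175 in resistant cells, and the median share of the sensitive response seen in resistant cells was 13.2% in the 27 genes that had fallen at least 2-fold. CDC20, an activator of the anaphase-promoting complex (ENSG00000117399, chromosome 1, 43358955 to 43363203), stood at 140, 175 and 143 CPM in sensitive DMSO and 44.2, 47.3 and 42.9 CPM in sensitive GNE-7883. In the resistant line it stood at 157, 161 and 153 CPM in DMSO and 133, 122 and 134 CPM in GNE-7883. Treated and untreated libraries did not overlap in either line, but the fall was 1.77 in sensitive and 0.28 in resistant cells, a difference of 1.49 ± 0.11 (adjusted p = 5.27e-08, edgeR).

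Of 30 DNA replication and G1/S genes 29 had a called difference, all above 0 (19.0% of all genes), with GINS3, which had not moved in sensitive cells, as the exception. Their median was -1.11 in sensitive and -0.0958 in resistant cells, 19 were lost, and 2 (CDC6, a loader of the replicative helicase, and GINS2, a part of that helicase) fell in resistant cells by 0.21 each. UHRF1, which maintains DNA methylation after replication, fell by 1.82 ± 0.10 in sensitive cells and was at -0.06 ± 0.09 in resistant cells (difference 1.75 ± 0.13, the largest of either list). The D cyclin CCND1 fell by 0.62 in sensitive cells and was at -0.03 ± 0.06 in resistant cells. The inhibitor of CDK4 and CDK6 encoded by CDKN2B rose by 1.59 and 0.55. Both belong to a mixed list of 14 tested CDK inhibitors, D cyclins and related genes. Of these, 5 rose and 6 fell in sensitive cells (29.8% and 28.4% of all genes). The difference was above 0 for 5 and below 0 for 3 (19.0% and 16.7% of all genes).

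The 250 bases before the start of 3 of these genes (RefSeq, GRCh38.p14: CDC20 on the plus strand, chr1:43358731-43358980, UHRF1 on the plus strand, chr19:4909251-4909500, and GINS2 on the minus strand, chr16:85688955-85689204) are shown because their motifs differ between the mitotic and the replication genes. Capitals mark matches on either strand to CHR (TTTGAA), the cell cycle homology element, to the E2F site GGCGGGAA and to the CCAAT box.
CDC20: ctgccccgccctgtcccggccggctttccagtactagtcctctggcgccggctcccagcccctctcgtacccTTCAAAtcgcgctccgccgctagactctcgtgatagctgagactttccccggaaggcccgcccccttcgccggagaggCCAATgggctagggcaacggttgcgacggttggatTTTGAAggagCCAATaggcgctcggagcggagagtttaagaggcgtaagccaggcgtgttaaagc
UHRF1: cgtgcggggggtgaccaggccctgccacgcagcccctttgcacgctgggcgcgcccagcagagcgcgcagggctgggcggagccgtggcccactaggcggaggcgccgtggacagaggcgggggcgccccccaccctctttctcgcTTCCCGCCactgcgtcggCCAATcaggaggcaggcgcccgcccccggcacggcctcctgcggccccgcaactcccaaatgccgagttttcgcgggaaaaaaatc
GINS2: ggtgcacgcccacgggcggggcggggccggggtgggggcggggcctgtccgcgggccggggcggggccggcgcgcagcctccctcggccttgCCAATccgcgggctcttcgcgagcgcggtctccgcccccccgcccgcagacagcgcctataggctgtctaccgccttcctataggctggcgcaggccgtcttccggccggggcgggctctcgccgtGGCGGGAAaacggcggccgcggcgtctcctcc
CHR letters stood in 17 of 25 matched promoters of the mitosis list (68.0%) and 1 of 26 of the replication list (3.85%), against 9.68% of those of tested genes. CCAAT letters stood in 80.0% and 57.7% against 36.3%. The E2F letters had the opposite leaning, in 4.0% of mitosis and 26.9% of replication promoters against 4.96%. Among all lost falls with a matched promoter the shares were 18.8% for CHR and 46.6% for CCAAT, and the lists named here are part of that set.

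Ribosome biogenesis genes and part of the cholesterol synthesis genes also fell less in resistant cells. Of 23 ribosome biogenesis genes 20 had a difference above 0 (19.0% of all genes) and 3 were not called, with medians of -0.928 and -0.244. Of the 23, 13 still fell in resistant cells (3.97% of all genes). RRS1, a ribosome assembly factor, fell by 1.56 ± 0.10 and 0.31 ± 0.09. Of 23 cholesterol synthesis genes 14 had a difference above 0 (19.0% of all genes) and 9 were not called, and 15 fell in sensitive cells (28.4%), with list medians of -0.487 and 0.0137. MVK (mevalonate kinase) fell by 0.92 ± 0.10 and stood at 0.06 ± 0.10 in resistant cells. Fatty acid synthesis genes were mixed: of 12, 5 rose and 3 fell in sensitive cells (29.8% and 28.4% of all genes). Of the 12, 4 differed above and 2 below 0 (19.0% and 16.7% of all genes, median difference of the list 0.0028). Among these the fatty acid synthase gene FASN fell by 1.15 ± 0.12 and stood at 0.01 ± 0.12. Of 29 glycolysis and hypoxia genes 15 differed above and 5 below 0 (19.0% and 16.7% of all genes). The glucose transporter SLC2A3, at 1.27, and lactate dehydrogenase LDHA, at 0.73, were among those above 0. The hexokinase gene HK2 was among those below 0.

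Among FOXO and quiescence genes 16 of 20 rose in sensitive and 7 in resistant cells (29.8% and 5.25% of all genes), with 4 lost and 4 reduced. FBXO32, a ubiquitin ligase gene of muscle wasting and a FOXO target (ENSG00000156804, chromosome 8, 123497889 to 123541206), stood at 27.5, 25.0 and 28.9 CPM in sensitive DMSO and 282, 298 and 287 CPM in sensitive GNE-7883. It stood at 27.1, 29.1 and 27.3 CPM in resistant DMSO and 62.7, 63.8 and 64.5 CPM in resistant GNE-7883. Both lines started at the same level and both rose without overlap, by 3.42 in sensitive and 1.19 in resistant cells (difference -2.22 ± 0.09, adjusted p = 7.64e-11, edgeR). In this list 15 had a difference below 0 (16.7% of all genes) and 2, ERBB3 and CITED2, above (19.0%), with medians of 1.03 and 0.262. PIK3IP1, an inhibitor of PI3 kinase, rose by 2.99 and 1.08, and TXNIP, which binds thioredoxin, rose by 1.31 in sensitive cells and was at -0.02 in resistant cells, not called.

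BCL2L11 encodes BIM, a pro-apoptotic BCL-2 protein (ENSG00000153094, chromosome 2, 111119378 to 111168447). It stood at 10.5, 8.57 and 11.8 CPM in sensitive DMSO and 42.5, 44.5 and 46.6 CPM in sensitive GNE-7883, against 5.82, 6.65 and 5.74 CPM in resistant DMSO and 5.31, 5.98 and 7.23 CPM in resistant GNE-7883. The resistant groups overlapped, and all their libraries lay below all sensitive ones. The rise of 2.12 ± 0.11 was at 0.01 ± 0.13 in resistant cells, whose 95% interval ran from -0.26 to 0.28, and the difference was -2.10 ± 0.17 (adjusted p = 1.5e-07, edgeR). Of 16 BCL-2 family genes 7 differed below and 5 above 0 (16.7% and 19.0% of all genes), 1 was lost and 4 could not be placed. In sensitive cells 8 rose and 6 fell (29.8% and 28.4% of all genes), and in resistant cells 2 fell (3.97%). The list thus moved in both directions, although the members named here all rose in sensitive cells. BID and HRK, other pro-death members, rose in sensitive cells by 0.89 and 0.76, while BMF, at 1.77 and 0.99, had a difference of -0.78 that was not called.

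Of 27 NF-kB, cytokine and chemokine genes 21 rose in sensitive cells and 9 in resistant cells (29.8% and 5.25% of all genes), and 4 fell in resistant cells (3.97%). The difference was below 0 for 17 (16.7% of all genes) and above 0 for 1, IL11 (19.0%), with 8 lost, 2 reduced and 1 kept and with medians of 0.842 in sensitive and 0.0703 in resistant cells. CXCL8 encodes interleukin 8 (ENSG00000169429, chromosome 4, 73740506 to 73743716). It stood at 17.1, 19.1 and 15.9 CPM in sensitive DMSO, 66.5, 83.3 and 68.6 CPM in sensitive GNE-7883, 29.7, 24.4 and 26.6 CPM in resistant DMSO, and 20.4, 21.5 and 20.3 CPM in resistant GNE-7883. All treated libraries lay above all untreated ones in the sensitive line and below them in the resistant line. CXCL8 rose by 2.07 ± 0.10 and fell by 0.38 ± 0.10, a difference of -2.44 ± 0.14 (adjusted p = 3.96e-09, edgeR). It sits at the edge of a class: lost here, it was reversed in 3 of 17 refits (without sensitive DMSO replicate 1, resistant DMSO replicate 2 or resistant GNE-7883 replicate 2) and could not be placed in 3 others, each without another resistant library. The A20 gene TNFAIP3, which restrains NF-kB, rose by 1.64 and was at -0.07 in resistant cells, not called, and the chemokine CCL2 rose by 1.90 and 0.24. SOD2, the mitochondrial superoxide dismutase, rose by 2.39 and 0.87.

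Feedback genes of the ERK pathway differed in both directions. DUSP6, an ERK phosphatase, rose from 1.49 ± 0.06 to 6.30 ± 0.64 CPM in sensitive cells (SD, n = 3) and from 18.2 ± 1.5 to 22.3 ± 0.6 CPM in resistant cells, where every library lay above every sensitive one. The log2 responses were 2.08 ± 0.11 and 0.29 ± 0.08, a difference of -1.78 ± 0.14 (adjusted p = 1.05e-07, edgeR). Of 12 ERK feedback inhibitors 6 differed below and 3 above 0 (16.7% and 19.0% of all genes). Among genes induced by ERK, FOSL1, an AP-1 subunit, fell by 1.62 and 0.54 and MYC by 0.77 and 0.21.

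**Figure D3:**
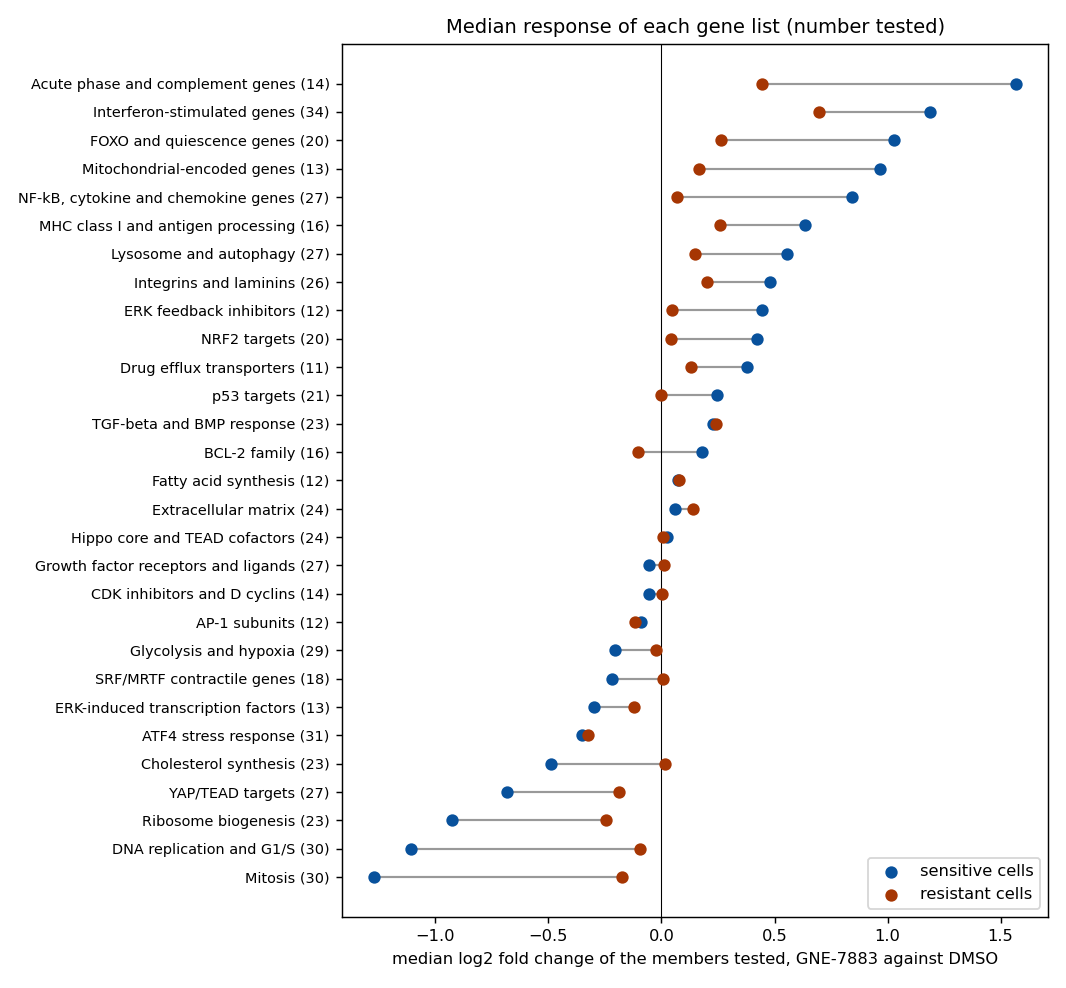
Median log2 fold change of GNE-7883 against DMSO over the tested members of 29 gene lists (number in brackets), blue for sensitive and brown for resistant cells, joined by a line. The division and replication lists span the longest distances on the left, interferon-stimulated genes keep the largest median in resistant cells (0.697), and the 2 medians of the ATF4 list nearly coincide (-0.353 and -0.323).

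Interferon-stimulated genes rose in both lines. Of 34 such genes 32 rose in sensitive and 29 in resistant cells (29.8% and 5.25% of all genes), with medians of 1.19 and 0.697. The difference was below 0 for 17, above 0 for none and not called for 17, a called share of 50% against 35.7% of all genes, and in the 19 genes that rose at least 2-fold in sensitive cells the median share seen in resistant cells was 58.6%, against 22% over all genes that rose so far. The count of called differences depended on single libraries, at 9 without resistant GNE-7883 replicate 1 and 11 without sensitive GNE-7883 replicate 2, either of resistant DMSO replicates 2 and 3, or resistant GNE-7883 replicate 2. By class 12 were reduced and RSAD2 was kept. RSAD2 encodes the antiviral enzyme viperin (ENSG00000134321, chromosome 2, 6865806 to 6898239). It stood at 18.1, 19.6 and 15.6 CPM in sensitive DMSO and 43.8, 48.1 and 35.5 CPM in sensitive GNE-7883, and at 41.3, 40.0 and 41.3 CPM in resistant DMSO and 82.9, 88.7 and 88.2 CPM in resistant GNE-7883. Untreated resistant libraries lay within the range of treated sensitive ones, and both lines rose without overlap, by 1.26 ± 0.10 and 1.08 ± 0.09. The difference was -0.17 ± 0.14 (95% interval -0.46 to 0.12, adjusted p = 0.352, edgeR).

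IFIT1, an antiviral RNA-binding protein, is an example of a reduced response, at 1.72 ± 0.11 and 0.96 ± 0.11. The 250 bases before the start nearest the upstream end of each annotated gene (RefSeq, GRCh38.p14, plus strand, chr2:6865635-6865884 for RSAD2 and chr10:89392373-89392622 for IFIT1) are shown because they hold the core GAAANNGAA of the interferon-stimulated response element (ISRE). Other starts of these genes, where they exist, were not examined. Capitals mark matches on either strand to this core and to the TEAD, E2F and CCAAT letters given above.
RSAD2: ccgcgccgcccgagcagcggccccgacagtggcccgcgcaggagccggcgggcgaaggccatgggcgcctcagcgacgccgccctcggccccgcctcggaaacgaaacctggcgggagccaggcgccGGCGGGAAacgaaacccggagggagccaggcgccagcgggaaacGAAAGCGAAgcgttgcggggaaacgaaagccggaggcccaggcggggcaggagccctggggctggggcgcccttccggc
IFIT1: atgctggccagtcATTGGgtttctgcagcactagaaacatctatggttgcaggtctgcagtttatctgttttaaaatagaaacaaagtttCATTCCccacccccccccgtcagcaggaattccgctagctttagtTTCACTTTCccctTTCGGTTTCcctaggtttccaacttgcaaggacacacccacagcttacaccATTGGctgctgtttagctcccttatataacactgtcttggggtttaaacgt
The ISRE letters stood once in RSAD2 and at 2 places in IFIT1, in 17 of 27 matched promoters of the list (63.0%) and in 6.33% of those of tested genes. GGAATG stood in 18.5% of the list and in 11.1% of tested genes.

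The other kept responses spanned several functions and untreated levels. ELF3, an epithelial ETS factor (ENSG00000163435, chromosome 1, 202007945 to 202017188), stood at 23.3, 25.8 and 23.3 CPM in sensitive DMSO, 75.7, 83.1 and 73.2 CPM in sensitive GNE-7883, 0.894, 0.736 and 0.921 CPM in resistant DMSO, and 2.59, 2.71 and 2.32 CPM in resistant GNE-7883. Its rises of 1.68 ± 0.07 and 1.59 ± 0.14 thus started from levels that differed widely between the lines, with a difference of -0.09 ± 0.17 (95% interval -0.44 to 0.27). CFI (complement factor I) rose by 1.54 and 1.27, also from a lower level in the resistant line (3.47 to 4.70 against 114 to 122 CPM). SCNN1A, a subunit of the epithelial sodium channel, rose by 1.18 and 1.22. ITGA11, a collagen-binding integrin, rose by 1.5 and 1.41 from the higher level in the resistant line. The chemokine CCL5 rose by 1.07 ± 0.12 and 1.09 ± 0.12. PTGIS, prostacyclin synthase and outside the rule for named genes, was the most abundant, at 1249 ± 101 and 3288 ± 138 CPM in sensitive and 281 ± 11 and 575 ± 17 CPM in resistant cells (SD, n = 3). RSAD2, ELF3, SCNN1A, ITGA11 and LXN stayed kept in all 17 refits, CCL5 and CFI in 15 and PTGIS in 16. CAMK2A stayed kept in 13 of 17, CD244 in 8 of 16 and TRABD2B in 7 of 17, and the other 2 of the 13 were not followed over the refits. For PTGIS the difference of -0.36 ± 0.08 was itself called, so that kept means within 1.5-fold and not equal. No fall met the limits for kept.

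ESM1 and CHAC1 were reversed, and in each all libraries of a group lay on one side of the other group of the same line. CHAC1 encodes an enzyme that breaks down glutathione and is induced by the stress factor ATF4 (ENSG00000128965, chromosome 15, 40952962 to 40956519). It stood at 1.88, 2.00 and 2.14 CPM in sensitive DMSO, 6.12, 6.83 and 5.92 CPM in sensitive GNE-7883, 6.12, 6.71 and 6.60 CPM in resistant DMSO, and 4.26, 4.17 and 3.44 CPM in resistant GNE-7883. Treated sensitive and untreated resistant libraries overlapped. CHAC1 rose by 1.65 ± 0.12 and fell by 0.70 ± 0.10, a difference of -2.35 ± 0.15 (adjusted p = 1.90e-08, edgeR). ESM1, which encodes the secreted proteoglycan endocan (ENSG00000164283, chromosome 5, 54977864 to 55022671), stood at 0.391, 0.452 and 0.411 CPM in sensitive DMSO (51 counts in all) and 2.06, 1.96 and 2.20 CPM in sensitive GNE-7883. It stood at 4.72, 5.98 and 5.16 CPM in resistant DMSO and 2.32, 1.76 and 1.94 CPM in resistant GNE-7883, so that the treated groups of both lines met at a common level. It rose by 2.31 ± 0.19 and fell by 1.39 ± 0.13, a difference of -3.70 ± 0.23 (adjusted p = 1.14e-08, edgeR). Both genes were reversed in every refit that tested them (17 for CHAC1 and 16 for ESM1).

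Smaller opposite responses were more frequent. Over any size 98 of 18035 tested genes were called in both lines with opposite signs, 33 rising in sensitive and falling in resistant cells and 65 the other way. The difference was called for all of them, which adds no support, because opposite responses add up in the difference. Examples were chosen after their values were seen. COL1A1, a fibrillar collagen, fell by 0.60 ± 0.08 in sensitive cells and rose by 0.37 ± 0.08 in resistant cells. The growth factor receptor PDGFRB fell by 0.89 and rose by 0.31, the ligand BMP4 fell by 0.79 and rose by 0.31, the keratin KRT7 fell by 0.58 and rose by 0.36, and CRABP2, which carries retinoic acid, fell by 0.65 ± 0.11 and rose by 0.64 ± 0.12. In the other direction MXD1, an antagonist of MYC, rose by 0.83 ± 0.08 and fell by 0.49 ± 0.07, and LPAR1, a receptor for lysophosphatidic acid, rose by 0.86 ± 0.08 and fell by 0.39 ± 0.08. HK2 (hexokinase 2) rose by 1.5 ± 0.07 and fell by 0.32 ± 0.07 and was placed among the lost responses because its fall stayed within 1.5-fold. The signal protein genes VEGFA and IL1A rose by 0.54 and 0.38 and fell by 0.28 and 0.59.

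Few responses were stronger in, or limited to, the resistant line. FST encodes follistatin, which binds activin (ENSG00000134363, chromosome 5, 53480409 to 53487134). It stood at 10.7, 11.2 and 11.8 CPM in resistant DMSO and 4.89, 4.47 and 4.64 CPM in resistant GNE-7883, and at 1.47, 1.5 and 1.4 CPM in sensitive DMSO and 0.974, 1.63 and 1.2 CPM in sensitive GNE-7883. The sensitive groups overlapped and the resistant groups did not. FST fell by 1.26 ± 0.11 in resistant cells and was at -0.19 ± 0.16 in sensitive cells, a difference of -1.07 ± 0.20 (adjusted p = 0.000544, edgeR) that was called in all 17 refits, though the gene stayed gained in 11. In all, 78 genes had a called difference and a called response in resistant but not in sensitive cells. RCAN1, an inhibitor of calcineurin and chosen after its value was seen, fell by 0.71 ± 0.05 from a level of 119 to 125 CPM in resistant cells and was at -0.10 ± 0.05 in sensitive cells. Of the 1416 genes called in both lines with the same sign, 1283 moved further in sensitive cells, and 942 had a called difference, of which 5 were larger in resistant cells. WNT4, a Wnt ligand, was one of these 5 and kept its call in every refit, at 0.53 ± 0.07 and 0.97 ± 0.08. The other 4, SLC7A11, CRB2, ATF3 and MMEL1, lost the call of the difference in 5 to 9 refits.

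Genes of the ATF4 stress response split in both directions. Of 31 tested, 9 differed above and 12 below 0, a share of 67.7% against 35.7% of all genes, with a median difference of 0.00601. In sensitive cells 9 rose and 16 fell (29.8% and 28.4% of all genes). In resistant cells 1 rose and 19 fell (5.25% and 3.97% of all genes). The 9 above 0 were STC2 and 8 enzymes and carriers of amino acid and one-carbon metabolism, although PHGDH, SLC6A9 and SLC7A11, of the same kind, were among the 12 below. SLC7A5, a transporter of large neutral amino acids, stood at 543, 576 and 535 CPM in sensitive DMSO, 81.8, 76.9 and 83.8 CPM in sensitive GNE-7883, 505, 585 and 524 CPM in resistant DMSO, and 394, 349 and 358 CPM in resistant GNE-7883. Untreated libraries of both lines overlapped, and the fall was 2.77 in sensitive and 0.55 in resistant cells (difference 2.22 ± 0.09). The serine synthesis enzyme PSAT1 (1.83 and 0.51) and the proline synthesis enzyme PYCR1 (1.51 and 0.32) fell less in the same way. The 12 also held stress factors. DDIT3, which encodes CHOP, fell by 0.69 ± 0.08 in resistant cells and was at -0.15 ± 0.08 in sensitive cells (difference -0.54 ± 0.11), and DDIT4, an inhibitor of mTORC1, rose by 1.24 in sensitive cells and was at -0.05 in resistant cells, not called.

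**Figure D4:**
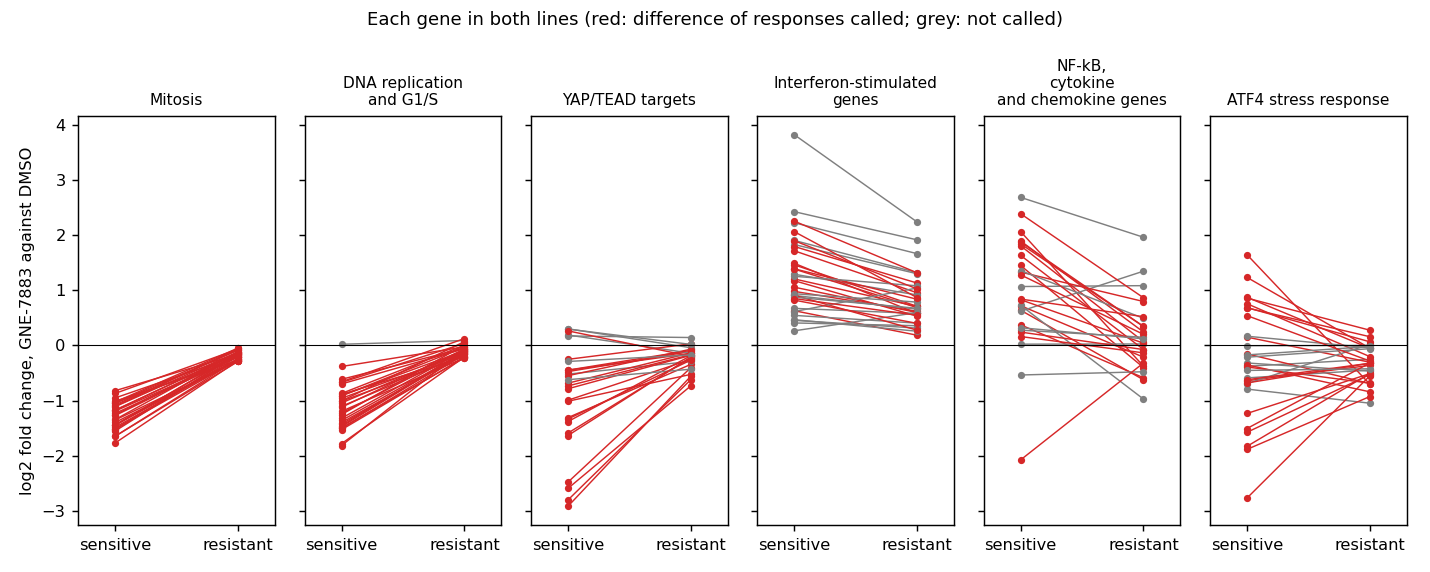
Log2 fold change of each tested gene of 6 lists in sensitive (left) and resistant cells (right), 1 line per gene, red where the difference was called. Lines of the mitosis and replication lists converge on 0, those of interferon-stimulated genes stay above 0 at the right, those of the NF-kB list end on both sides of 0, and those of the ATF4 list end mostly below 0 from either side.

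Some of the strongest sensitive responses could not be compared because the resistant line scarcely expressed the gene. HP (haptoglobin) rose by 5.27 in sensitive cells but had 2 and 10 counts over 3 libraries each of resistant DMSO and GNE-7883, and the mucin MUC16 rose by 3.75 in sensitive cells and had 3 and 3 counts, so that no fold is given for either in resistant cells. PRG4, the lubricant lubricin, rose by 4.59 ± 0.12 in sensitive cells, and at 0.25 to 0.45 CPM in both resistant groups its response there was 0.01 ± 0.30. ITGBL1, an integrin-like protein gene, was the converse: at 17.1 to 22.5 CPM in resistant cells it was not called (-0.24 ± 0.11), and with 4 and 16 counts over the sensitive groups no fold is given there. ITGBL1 still counts among the lost responses, on a sensitive rise of those few reads, and stayed there in 15 of 17 refits. Of 18 mesothelial markers 12 rose and 5 fell in sensitive cells (29.8% and 28.4% of all genes, list median 0.283). In resistant cells 7 rose (5.25% of all genes). The difference was above 0 for 5 and below 0 for 4, a share of 50% against 35.7% of all genes. All 5 above 0 were WT1 and the keratins KRT5, KRT7, KRT8 and KRT18, and the 4 below 0 were GATA4, ITLN1, LRRN4 and PRG4. KRT5, KRT8 and KRT18, all keratins, fell by 1.38, 1.07 and 1.14 in sensitive cells and were at 0.17, 0.08 and 0.10 in resistant cells, not called, while CALB2 (calretinin) rose in both, by 0.57 and 0.69.

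The 13 genes encoded by mitochondrial DNA rose in sensitive cells (29.8% of all genes), 2 rose in resistant cells (5.25%), and the difference was below 0 for all 13 (16.7%, median -0.698). Their share of counts was 0.556 ± 0.057% without and 1.01 ± 0.07% with the drug in sensitive cells, and 0.604 ± 0.070% and 0.656 ± 0.040% in resistant cells (SD, n = 3). This share rose in the same comparison as the responses above, and its part in the differences was not tested. Of 9 endothelial markers 5 could be tested, and the list summed to 85.6 to 94.6 CPM in sensitive DMSO, 194 to 208 in sensitive GNE-7883 and 85.2 to 95.3 in resistant cells, with EMCN, CLDN5 and ERG at no more than 3 counts per library on average. Of the 5 tested, 2 rose and 2 fell in sensitive cells (29.8% and 28.4% of all genes), with a median of 0.0136. Only 2 reached 5 CPM in a group, so that the sum rests on few genes. Of the alveolar and airway markers SFTPD (surfactant protein D) rose by 2.96 in sensitive and 1.35 in resistant cells (from 0.614 to 1.58 CPM in the latter), and 7 of the 12, NKX2-1 and SCGB1A1 among them, were at no more than 3 counts.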

How the data were processed

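RNA was profiled in 12 libraries made from total RNA with an unstranded TruSeq kit and short single-end reads, per the labels' protocols. The authors deposited whole-number read counts per Ensembl gene, not normalized, and these counts were used here. RPKM values for the same libraries were also deposited and were not used. GSNAP, limma and GRCh38.p10 are named in the submitters' processing notes without their roles. The counting tool, annotation release and strand setting were not given in the sources used here, so reads of overlapping, antisense or near-identical genes (SAA1 and SAA2, AKR1C genes, FTH1 and its copies) cannot be told apart. Symbols matched 58039 of 58302 identifiers, and coordinates came from GENCODE 29 on GRCh38.

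The tool was edgeR 4.0.16 under R 4.3.3. After TMM scaling and filterByExpr by group, which left 18035 genes, a quasi-likelihood model took 1 mean for each group, leaving 8 residual degrees of freedom. Tests were two-sided, and p-values were adjusted by Benjamini-Hochberg over the genes tested. Standard errors are the size of the log2 fold change divided by the root of F, and levels are TMM-scaled CPM. To check the code, the test was run on simulated counts with known changes in some genes. Those counts held no other drug effect, unlike these data. Alternatives were other scaling, DESeq2 1.42.0, other filters, a replicate block, other class limits and leaving out each library. The floor of 3 counts allows for counting error alone, because the reads carry no molecular identifiers and need not be separate molecules.

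Genes named by rule needed 5 CPM in a group: the 6 largest differences in each direction of lost, reduced and gained genes, up to 5 of reversed ones, 6 kept genes by the smaller response, up to 3 called and 2 kept members per list, and a few fixed names. The gene lists, classes and rules were chosen with earlier results of these data known. Promoters are RefSeq windows from 250 bases before to 50 after a start, matched by symbol. Where a gene had several starts, only the window nearest the upstream end of the annotated gene was used. Those of CDC20 and IFIT1 were added after the motif shares had been seen.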

Additional observations from a re-analysis of the deposited data

Results flagged for a closer look

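The number of genes whose response differed between the lines, 6443, was flagged because the test was of the difference itself. ESM1 (difference of responses -3.70 on the log2 scale) and CHAC1 (-2.35) were flagged for 2 reasons. All treated libraries lay above all untreated ones in sensitive cells and below them in resistant cells, and the test of the difference was called for both.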

How the results depend on the processing

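Each fit below changed 1 choice. Difference calls numbered 3500 above and 2914 below 0 with RLE size factors, 3406 and 3009 with upper-quartile scaling, 3478 and 2884 with DESeq2, 3894 and 2708 with no filter, 3011 and 2558 with a filter of 5 CPM in 3 libraries, and 753 and 741 at 2-fold or more. Leaving out 1 library gave 3108 to 3788 above and 2232 to 3323 below 0. With the replicate block 3295 and 2916 were called, and 961 of the 994 lost responses were also lost. No pairing by number was seen: over 18 same-numbered pairs deviations correlated at -0.119 to 0.18, beside -0.159 to 0.109 over 36 pairs of different number. Only 1 of 12 libraries correlated best with its own number. Whether libraries shared a culture or day cannot be told from these values.

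Small classes moved most. There were 5 reversed, 1 gained and 0 larger responses with DESeq2, 10, 1 and 2 with no filter, and 1, 1 and 0 with the 5 CPM filter, which left 114 unplaced. The replicate block gave 1 gained and 2 larger. A response limit of 1.5-fold gave 2894 lost, 92 kept, 21 reversed, 15 gained, 4 larger and 2208 unplaced, and one of 3-fold gave 167 lost, 182 reduced, 1 kept, 1 gained and 585 unplaced. A narrower interval limit, a factor of 5/4, gave 296 lost, 521 reduced, 1 kept, 9 reversed and 0 gained, and one of 2-fold gave 1580 lost, 81 reduced, 50 kept, 1 reversed and 4 gained. Leaving out 1 library gave 896 to 1051 lost, 244 to 336 reduced, 10 to 14 kept, 3 to 7 reversed, 0 to 4 gained, 0 to 2 larger and 1352 to 1599 unplaced. Classes were not run under upper-quartile scaling. The limits themselves set these counts, and no other cause was tested.

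Of 160 genes followed over the alternatives, 144 kept direction and call in every one. The naming rule gave 131 of them, mostly for large called differences in these libraries, so that their stability was partly set by that choice. Some genes given above with values, such as SLC2A3, LDHA and SOD2, were not followed. The near-zero differences of 3 kept genes changed sign, ranging from -0.1416 to 0.1722 for CCL5, -0.1556 to 0.009764 for ELF3 and -0.1542 to 0.03093 for ITGA11. Calls were lost for ATF3, CRB2, ITGBL1, IVL, MMEL1 and SLC7A11 and won for CFI, HP, LXN, MUC16, OAS2, TEAD1 and TRABD2B in some alternatives. Depth limits low genes: 1200 unplaced responses stayed below 5 CPM in every group.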
